A study of Homo sapiens with 9 samples.

Results

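The genes described here are 9 members of the plasminogen system and its surrounding protease inhibitors, out of 63241 genes in the deposited tables: the plasminogen activators PLAU and PLAT, the receptor PLAUR, the inhibitors SERPINB2, SERPINE2, A2M, TFPI and TFPI2, and the clotting initiator F3. They were listed by symbol, matched to human Ensembl IDs, and chosen by their measured levels in the 3 groups, with the differences between groups already known. Those differences are therefore given as a description. Where a member is called higher or lower, or passes or misses a threshold, this only describes the fit made to all genes. Because the same differences chose the members, such calls are not tests of them, and their loss or gain under other settings is description too. RNA was sequenced from MEG-01, a human megakaryoblast line established from chronic myeloid leukaemia in blast crisis, in 3 groups of 3 libraries. The control group was labelled as control only, 1 group was treated with As2S2 (arsenic disulfide) and 1 with PMA (phorbol 12-myristate 13-acetate, an agent that switches on protein kinase C and is widely used to push such cells to mature). The title of the series concerns the effect of As2S2 on megakaryocyte differentiation and its signalling. The labels give no dose, no time and no vehicle, and 1 cell line stands for the lineage.

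Plasmin is the protease that dissolves fibrin and helps cells move through matrix. It is made from the blood protein plasminogen by urokinase (PLAU) or tissue plasminogen activator (PLAT), and PLAUR holds urokinase at the cell surface. Serpins stop these activators by trapping them in a covalent complex: SERPINB2 is plasminogen activator inhibitor type 2, and SERPINE2 (protease nexin) blocks thrombin and urokinase. A2M, alpha-2-macroglobulin, cages proteases of many classes. TFPI blocks the complex that F3 (tissue factor) forms to start clotting, and its relative TFPI2 blocks plasmin and other serine proteases through Kunitz domains.

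Total counts ran from 18200501 to 20366870 per library. The filter on low counts kept 14592 genes for testing. The second control library and the first As2S2 library differed most from their group: replicate pairs holding either gave a chi-square per gene of 12 to 15.2, and the remaining pairs 2.42 to 3.46. The labels do not say whether replicates were separate cultures, so errors and p-values cover only the spread between these libraries, which may be technical. Of 14 megakaryocyte markers 12 could be tested. ITGA2B, the platelet integrin chain, stood at 719 ± 61.4 CPM in control (SD, n = 3), while PF4 and VWF held at most 20 counts in any group. With PMA 8 of the 12 rose and 2 fell (30.8% and 31.1% of all tested genes). With As2S2 6 rose and 2 fell (20.3% and 19.6%). ITGA2B and NFE2 were the 2 that fell in both. With PMA their log2 fold changes were -1.05 ± 0.08 (adjusted p = 1.71e-08, edgeR) and -0.50 ± 0.08 (adjusted p = 6.54e-05). Of the 8 that rose with PMA, ITGB3 went from 78.1 ± 2.19 to 419 ± 6.59 CPM (2.42 ± 0.07, adjusted p = 6.52e-14, edgeR). TUBB1 rose most, by 5.53 ± 0.34 (adjusted p = 6.23e-10, edgeR), from only 0.127 ± 0.0708 CPM in control. CPM is the number of counts per 1000000 counts of a library, whose total is first scaled by TMM. TPM is the number of transcripts per 1000000 transcripts, in which counts are divided by transcript length before they are scaled. Markers of other cells moved in part with PMA. The 12 monocyte and macrophage markers summed to 296 to 339 CPM in control, 341 to 392 with As2S2 and 734 to 750 with PMA, mostly through CD68, while CD163 was at 0 in every library. Of the 8 that could be tested 5 rose and 2 fell with PMA, the latter being ITGAM (-1.88 ± 0.14, adjusted p = 5.39e-09, edgeR) and MRC1 (-2.58 ± 0.40, adjusted p = 3.18e-05). The 10 fibroblast markers summed to 0.311 to 0.786, 0.784 to 1.31 and 11.4 to 13.4 CPM, through COL1A1, with POSTN and PDPN at 0 throughout. The 10 endothelial markers summed to 337 to 414, 430 to 487 and 352 to 360 CPM, with CLDN5 at 0 in control and PMA. The part of these cell types' genes in the results below was not tested.

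The members fell into 3 patterns. SERPINB2, A2M, TFPI2 and PLAT were nearly silent in control and As2S2 libraries and far higher with PMA, by 35.6 to 453 times over control. TFPI and PLAUR were moderately expressed in control, higher with As2S2 and higher again with PMA. SERPINE2 went the other way, highest in control, lower with As2S2 and lowest with PMA. PLAU differed little, and F3 held too few counts to describe.

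**Figure D1:**
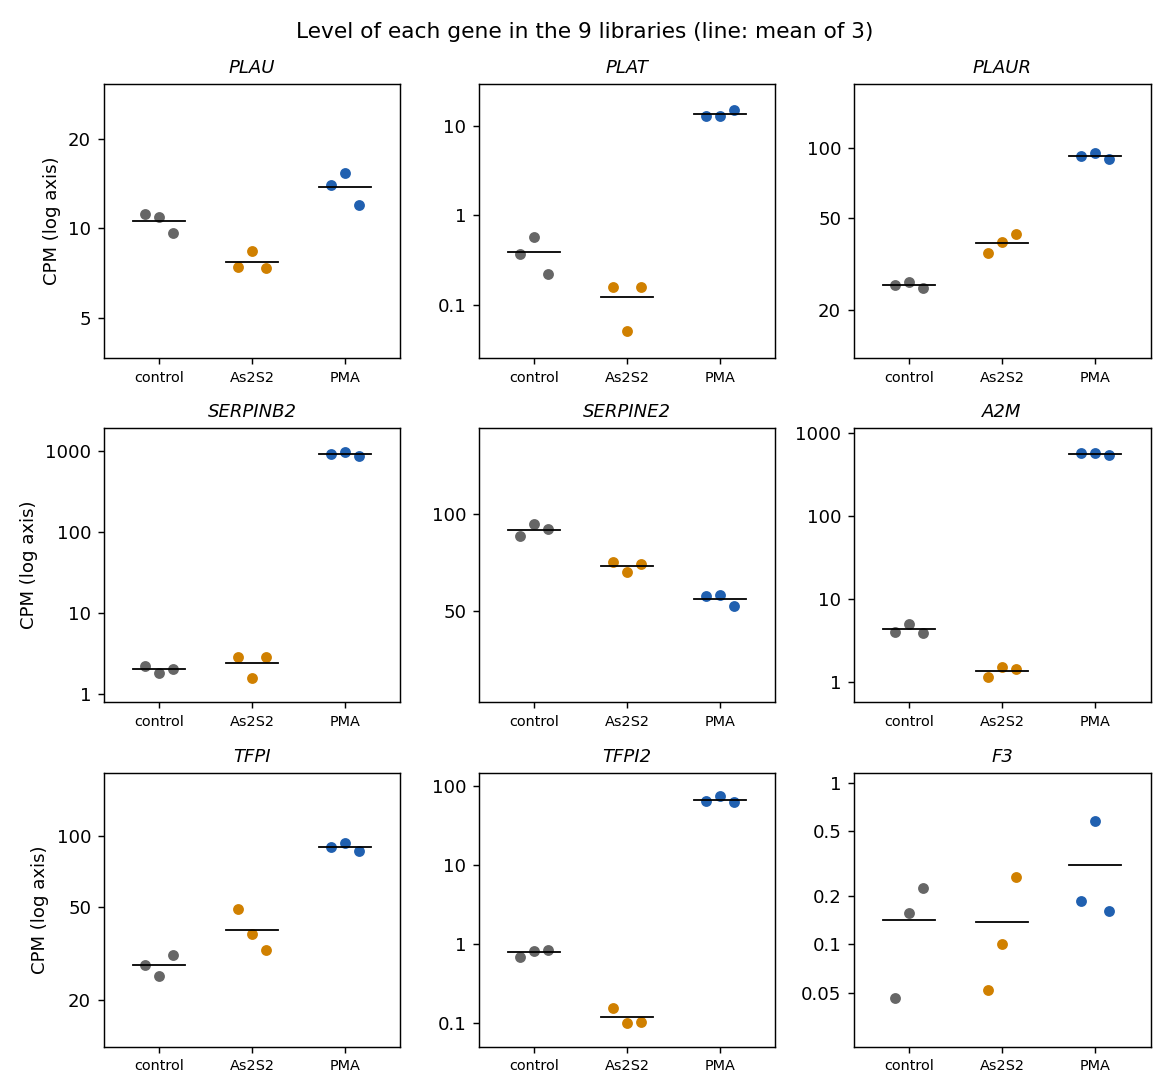
CPM of each of the 9 genes in every library on log axes whose ranges differ between genes (points: libraries, black lines: means of 3). SERPINB2, A2M, TFPI2 and PLAT stood apart with PMA, at means of 916, 557, 67.2 and 13.7 CPM, whereas SERPINE2 was lowest there at 54.3 CPM.

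SERPINB2 (ENSG00000197632) had the largest difference from control. Its control replicates 1, 2 and 3 held 2.17, 1.81 and 2.05 CPM, its As2S2 replicates 2.87, 1.56 and 2.82 CPM, and its PMA replicates 922, 961 and 864 CPM. The PMA libraries lay far above both other groups, which overlapped each other. The log2 fold change of PMA against control was 8.82 ± 0.14 (SE of the fit), or 453 times, which placed it 7th from the top of the 14592 tested genes. With As2S2 it was 0.26 ± 0.20, which did not pass the threshold. Over the alternative settings it ranged from 0.05, without control replicate 2 and As2S2 replicate 1, to 0.50, without As2S2 replicate 2, the lowest library, where it was called higher. In a bulk sample, more cells that express a gene and more RNA per cell cannot be told apart.

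A2M (ENSG00000175899) showed a PMA difference of similar kind together with a lower level under As2S2. Control replicates 1, 2 and 3 held 4.02, 5.02 and 3.92 CPM, As2S2 replicates 1.15, 1.51 and 1.46 CPM, and PMA replicates 566, 567 and 538 CPM. The 3 groups did not overlap, with As2S2 lowest and PMA highest. Against control the log2 fold change was 7.02 ± 0.10 with PMA, or 129 times, and -1.64 ± 0.16 with As2S2, or 3.11 times lower. The As2S2 value rested on 80 counts in 3 libraries against 272 in control.

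TFPI2 (ENSG00000105825) followed the same order at a lower level. The control libraries held 15, 16 and 19 counts, the As2S2 libraries 3, 2 and 2, and the PMA libraries 1045, 1283 and 1169. Each group lay apart from the others. PMA against control stood at 6.40 ± 0.14 on the log2 scale, or 84.5 times. With As2S2 the ratio of summed counts (7 against 50) was 0.153, with an exact Poisson 95% interval of 0.0584 to 0.339 that covers counting error only. Between the treatments, 3497 counts with PMA stood against 7 with As2S2, a ratio of 558 (interval 270 to 1390).

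PLAT (ENSG00000104368), the activator best known for fibrin-bound plasminogen, entered the tests only through its PMA libraries. It held 8, 11 and 5 counts in control, 3, 1 and 3 with As2S2, and 210, 226 and 281 with PMA. The PMA libraries were all far higher, by 5.15 ± 0.24 on the log2 scale over control (35.6 times). The 7 counts with As2S2 against 24 in control gave a ratio of 0.318 (interval 0.116 to 0.761). The libraries of those groups did not overlap, but PLAT no longer passed the threshold for As2S2 without control replicate 1 (-1.61), control replicate 2 (-1.25), As2S2 replicate 2 (-1.23) or both libraries that stood apart (-1.46). It also missed the stricter adjusted p of 0.01. With only the control and As2S2 groups in the fit, PLAT was not tested at all.

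TFPI (ENSG00000003436) was expressed in every library and differed in steps. Control replicates 1, 2 and 3 held 28.2, 25.3 and 31.2 CPM, As2S2 replicates 49.2, 38.3 and 32.7 CPM, and PMA replicates 90.2, 93.5 and 86.3 CPM. No group overlapped another, though the lowest As2S2 library lay close to the highest control. The log2 fold change was 0.50 ± 0.12 with As2S2 and 1.67 ± 0.12 with PMA (3.18 times). The As2S2 value ranged from 0.26 to 0.63 over the alternative settings, with 0.33 without As2S2 replicate 1, the highest library of its group, and 0.26 without that library and control replicate 2, the lowest control. Its counts were not whole in any of the 9 libraries, so its level is an estimate and less certain than that of a gene counted in whole reads.

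PLAUR (ENSG00000011422), the urokinase receptor, showed the same order with less spread. It held 25.6, 26.3 and 24.7 CPM in control replicates 1, 2 and 3, 35.2, 39.3 and 42.4 CPM with As2S2, and 92.5, 95.2 and 89.5 CPM with PMA. All As2S2 libraries were above all controls and below all PMA libraries. The difference from control was 0.61 ± 0.09 with As2S2 (1.53 times) and 1.86 ± 0.09 with PMA (3.62 times).

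SERPINE2 (ENSG00000135919) was the member with the highest level in control and the only one of the 8 tested that was lower with both treatments. Its control replicates 1, 2 and 3 held 85.8, 93.1 and 89.7 CPM, its As2S2 replicates 71.2, 66.0 and 69.9 CPM, and its PMA replicates 55.5, 55.8 and 51.6 CPM. The groups did not overlap. The log2 fold change was -0.38 ± 0.07 with As2S2, or 1.30 times lower, and -0.72 ± 0.07 with PMA, or 1.65 times lower.

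PLAU (ENSG00000122861), the ligand of PLAUR, moved least among the tested members with PMA. It stood at 11.1, 10.9 and 9.65 CPM in control replicates 1, 2 and 3, at 7.41, 8.36 and 7.32 CPM with As2S2, and at 14, 15.3 and 11.95 CPM with PMA. The As2S2 libraries were the lowest on this scale and the PMA libraries the highest, with log2 fold changes of -0.45 ± 0.13 and 0.38 ± 0.12. The PMA difference missed the threshold without control replicate 3 (0.32), without PMA replicate 2 (0.30) and with total counts in place of TMM (0.12), and it changed sign on the TPM scale described below.

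F3 (ENSG00000117525) did not have enough counts to be tested. It held 1, 3 and 5 counts in the control libraries, 1, 2 and 5 with As2S2, and 3, 10 and 3 with PMA. The groups overlapped. The ratio of PMA to control was 2.17 (exact Poisson 95% interval 0.901 to 5.56) and that of As2S2 to control 0.97 (0.326 to 2.83), so no difference was detectable at this depth.

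**Figure D2:**
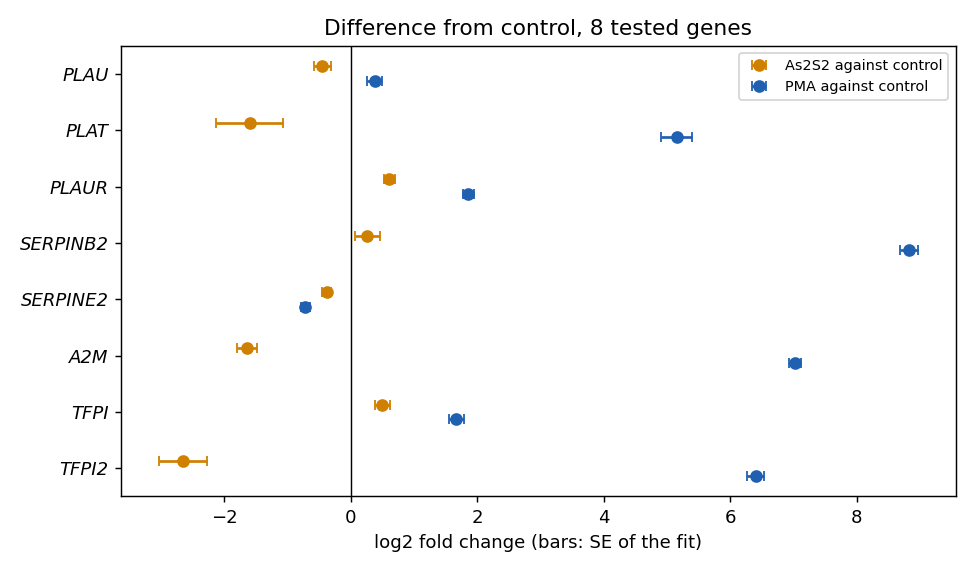
Log2 fold change against control of the 8 tested genes with As2S2 and with PMA (points: estimates of the fit, bars: SE). SERPINB2, A2M, TFPI2 and PLAT lay between 5.15 and 8.82 with PMA, and A2M, TFPI2 and PLAT lay between -2.65 and -1.60 with As2S2.

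Counted over the tested members, 7 of 8 were called higher and 1 lower with PMA at an adjusted p below 0.05 (edgeR), where 61.9% of all tested genes were called, 30.8% higher and 31.1% lower. With total counts in place of TMM those shares were 20.3% and 44.4%. With As2S2, 2 of 8 were called higher and 5 lower, against 39.9% of all tested genes called, 20.3% higher and 19.6% lower. PLAT, 1 of the 5, entered the tests only through its PMA libraries. PMA set directly against As2S2 gave 7 higher and 1 lower, against 61.4%, 30.6% and 30.9%. These contrasts chose the members, so nothing is read from the counts. The PMA libraries lay wholly above control for 7 members and wholly below for 1, which held for 33.8% and 33.7% of all tested genes (67.5% together). The As2S2 libraries lay wholly above control for 2 members and wholly below for 5, against 23.1% and 22.7% (45.8% together). PMA lay wholly above As2S2 for 7 members and below for 1, against 33.6% each way (67.2% together). The median log2 fold change was 3.50 with PMA and -0.41 with As2S2, where the median over all tested genes was 0.00 in both. Both comparisons share the control libraries. In the authors' deposited table, 6 of the 9 members were marked significant and up with PMA, 0 down, and 2 (A2M and TFPI2) were marked down with As2S2. The cut-off of those marks is not known here, and SERPINE2 with PMA was unmarked at a deposited log2 fold change of -0.75. The marks are therefore not counted on the same terms as the calls above.

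Levels of different genes were compared on the deposited TPM, which accounts for transcript length. In control SERPINE2 was the most abundant member at 37.0 ± 1.10 TPM (SD, n = 3), followed by PLAUR at 19.5 ± 0.714 and TFPI at 15.3 ± 1.99. PLAU stood at 4.37 ± 0.301 TPM, A2M at 1.06 ± 0.0896 and SERPINB2 at 0.99 ± 0.142, where A2M and SERPINB2 overlapped. TFPI2, PLAT and F3 followed at 0.443, 0.127 and 0.0633 TPM, and PLAT and F3 overlapped. With As2S2 the top of the order was no longer separated. PLAUR (27.5 ± 2.26 TPM), SERPINE2 (26.1 ± 1.24) and TFPI (21.9 ± 3.78) each overlapped the next.

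With PMA the order turned over. SERPINB2 led at 323 ± 10.1 TPM and moved from rank 11435 of all 63241 genes in control to rank 278. A2M followed at 84.1 ± 0.890, PLAUR at 50.1 ± 1.504, TFPI at 42.7 ± 2.15, TFPI2 at 23.5 ± 1.59 and SERPINE2 at 16.2 ± 0.106 TPM, with no overlap between neighbours. PLAU (3.83 ± 0.362) and PLAT (3.10 ± 0.351) overlapped, so the activators PLAU and PLAT had levels that their spread did not separate, and F3 was last at 0.13 ± 0.07 TPM. The 9 members together took 75.2 to 81.6 TPM in control, 78.4 to 83.6 with As2S2 and 533 to 563 with PMA, and SERPINB2 and A2M made up 74.0 to 74.9% of that sum with PMA against 2.45 to 2.84% in control.

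The scale changed the size of these differences. The TPM of the median tested gene was lower with PMA than in control by 0.40 on the log2 scale (-0.40, with 0.1 TPM added to each mean) and differed by -0.11 with As2S2. With total counts the corresponding medians were -0.26 and -0.08. SERPINB2 stood at 327 times control with PMA by TPM, A2M at 79.6 times, TFPI2 at 53.1 times and PLAT at 24.4 times. SERPINE2 was 2.29 times lower by TPM, against 1.65 times by CPM. PLAU turned from 0.38 to -0.19, with overlapping groups, which is above the median of all genes on that scale but below control. With As2S2, A2M was 2.06 times lower by TPM (-1.04) against 3.11 times by CPM, and TFPI2 3.59 times lower (-1.85) against 6.26 times. PLAT with As2S2 went from -1.60 to -0.04 with overlapping groups, at 0.25, 0.03 and 0.09 TPM in As2S2 replicates 1, 2 and 3, values that rest on 7 counts in all.

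**Figure D3:**
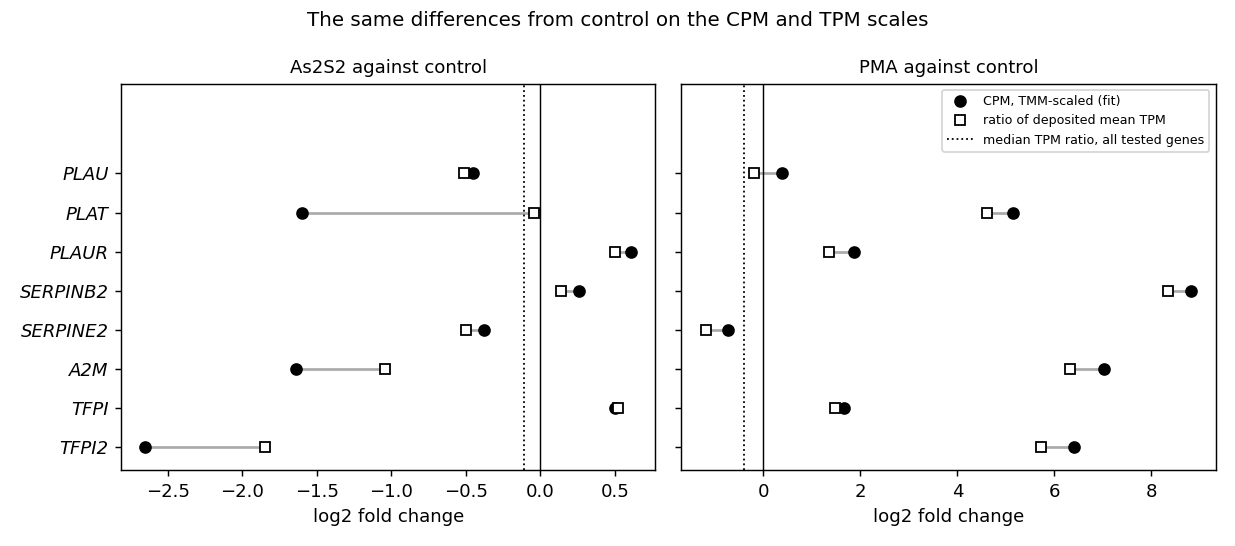
Log2 fold change against control of the 8 tested genes from TMM-scaled counts (filled circles) and as the ratio of deposited mean TPM (open squares), with the median TPM ratio of all tested genes as a dotted line. With PMA every gene shifted left on the TPM scale, and PLAU crossed 0, from 0.38 to -0.19.

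Promoter sequences are shown for members whose windows hold a match to the AP-1 motif TGANTCA, the element bound by FOS and JUN dimers that phorbol esters are known to act through. The windows run from 250 bases before to 50 after each start in RefSeq (GRCh38.p14), 5′ to 3′ on the strand of the gene, with the matches in capitals. A window was read for 7 members (9 windows), with A2M and PLAT not used here. Matches were found for SERPINB2, TFPI2, PLAUR and F3 and not in these windows of TFPI, PLAU and SERPINE2. Of 35116 windows of all genes 7.7% held the motif on either strand. No AP-1 match overlapped one of the other motifs searched, on either strand. The SERPINB2 window is chr18:63887455-63887754 (plus strand), that of TFPI2 chr7:93890704-93891003, that of PLAUR chr19:43670120-43670419 and that of F3 chr1:94541710-94542009 (all minus strand).
SERPINB2: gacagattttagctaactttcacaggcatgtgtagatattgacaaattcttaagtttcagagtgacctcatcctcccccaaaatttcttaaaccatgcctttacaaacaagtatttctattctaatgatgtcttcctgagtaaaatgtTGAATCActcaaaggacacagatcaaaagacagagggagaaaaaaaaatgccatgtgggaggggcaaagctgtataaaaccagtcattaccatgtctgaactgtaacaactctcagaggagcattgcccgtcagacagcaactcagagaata
TFPI2: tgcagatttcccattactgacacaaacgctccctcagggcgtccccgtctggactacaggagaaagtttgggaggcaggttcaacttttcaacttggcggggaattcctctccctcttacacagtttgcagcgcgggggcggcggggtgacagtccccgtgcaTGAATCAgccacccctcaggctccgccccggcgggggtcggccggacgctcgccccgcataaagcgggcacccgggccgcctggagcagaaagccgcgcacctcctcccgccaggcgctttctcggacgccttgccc
PLAUR: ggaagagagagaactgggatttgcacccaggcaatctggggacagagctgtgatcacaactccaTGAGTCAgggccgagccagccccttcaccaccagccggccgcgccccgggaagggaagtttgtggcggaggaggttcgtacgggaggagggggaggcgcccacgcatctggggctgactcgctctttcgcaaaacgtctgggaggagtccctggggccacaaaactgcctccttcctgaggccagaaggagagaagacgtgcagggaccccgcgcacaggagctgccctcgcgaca
F3: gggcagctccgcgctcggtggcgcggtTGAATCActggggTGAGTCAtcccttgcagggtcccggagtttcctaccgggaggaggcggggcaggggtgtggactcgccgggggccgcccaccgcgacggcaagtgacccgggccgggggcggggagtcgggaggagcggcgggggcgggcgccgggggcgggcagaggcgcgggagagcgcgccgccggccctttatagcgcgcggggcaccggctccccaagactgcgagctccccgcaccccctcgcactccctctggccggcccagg

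The SERPINB2 match lay at -102 to -96 from the start, that of TFPI2 at -87 to -81 and that of PLAUR at -186 to -180, while F3 held matches at -223 to -217 and -210 to -204. The TATA motif TATAAA, in 11.5% of all windows on either strand, was in the windows of SERPINB2 (-30 to -25) and, on the opposite strand, F3 (-28 to -23). SERPINB2 had the lowest GC content of the 9 windows, 39.0%, where the median of all windows was 58.7%. The F3 window, with the most matches, had 77.3% GC and 4 matches to the SP1 motif GGGCGG (in 45.0% of all windows), and its transcript was the least abundant of the 9. The GATA motif AGATAA (10.3% of all windows) was in none of the 9 windows. The pattern TGCNCNC, looser than the metal response core, was in the windows of TFPI2, PLAUR, F3 and SERPINE2 and in 55.9% of all windows. A match to it need not be that core. Such matches describe the letters in these windows and not binding.

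The other genes of the system were taken from 5 lists of 79 genes in all, of which 38 had enough counts to be tested. With PMA 21 rose and 11 fell (30.8% and 31.1% of all tested genes), and with As2S2 10 rose and 14 fell (20.3% and 19.6%). Their median log2 fold change was 0.51 with PMA and -0.19 with As2S2. The same shares of all tested genes apply to the counts of each list below, which hold few genes.

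Plasminogen itself was hardly present: PLG held 1, 2 and 3 counts in the summed libraries of control, As2S2 and PMA. Of the 10 genes for plasminogen and its regulators only F12, coagulation factor XII, could be tested, and it did not pass (-0.12 ± 0.23 with PMA, adjusted p = 0.677, and -0.29 ± 0.23 with As2S2, adjusted p = 0.331, edgeR). LPA, HRG, KLKB1 and HPN had 0 counts in all 9 libraries.

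Among 11 tested receptors and clearance genes, 3 rose and 6 fell with PMA (median -0.33), and 4 rose and 3 fell with As2S2 (median -0.19). ANXA2 and S100A10, which form the annexin complex that binds plasminogen at the cell surface, rose with both. ANXA2 went from 174 ± 3.18 CPM in control to 318 ± 28.5 with As2S2 (0.87 ± 0.07, adjusted p = 1.65e-07) and 379 ± 13.1 with PMA (1.12 ± 0.07, adjusted p = 1.23e-09), though its counts were whole in only 2 of 9 libraries. S100A10 went from 32.2 ± 3.18 to 69.4 ± 6.77 CPM with As2S2 (1.11 ± 0.10, adjusted p = 4.21e-07) and 54.8 ± 4.50 with PMA (0.77 ± 0.10, adjusted p = 5.39e-06). VLDLR, a clearance receptor for activator complexes, fell with PMA from 20.5 ± 1.38 to 2.90 ± 0.889 CPM (-2.83 ± 0.17, adjusted p = 3.87e-10), and LRP1, a receptor of the same family at 1.10 ± 0.423 CPM in control, did not pass (0.20 ± 0.36, adjusted p = 0.657). LRPAP1, the chaperone of these receptors, rose (0.78 ± 0.09, adjusted p = 8.52e-07). IGF2R, which binds PLAUR and latent growth factors, fell from 135 ± 9.15 to 38.1 ± 1.40 CPM (-1.83 ± 0.07, adjusted p = 4.31e-12), with whole counts in 0 of 9 libraries. ITGAM, an integrin chain that pairs with ITGB2 and binds plasminogen, fell with PMA (-1.88 ± 0.14, adjusted p = 5.39e-09). With As2S2 ITGB2 fell by 0.97 on the log2 scale (SE 0.13, adjusted p = 3.23e-05). The plasminogen receptor PLGRKT did not pass with PMA (0.20 ± 0.14, adjusted p = 0.231) or As2S2 (-0.30 ± 0.15, adjusted p = 0.109), though it passed for As2S2 without As2S2 replicate 3 (-0.43, adjusted p = 0.0482) and with total counts (-0.39, adjusted p = 0.0464).

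Of 24 other serpins 11 could be tested, of which 7 rose and 2 fell with PMA (median 0.65), and 5 rose and 6 fell with As2S2 (median -0.24). SERPINI1, neuroserpin, an inhibitor of PLAT, rose from 3.21 ± 0.170 to 25.0 ± 2.19 CPM with PMA (2.96 ± 0.13, adjusted p = 1.53e-11, edgeR). SERPINB9, the granzyme B inhibitor, rose with PMA (1.11 ± 0.08, adjusted p = 5.52e-09) and fell with As2S2 (-0.55 ± 0.08, adjusted p = 7.59e-05), with whole counts in 0 of 9 libraries. SERPINB1, which inhibits neutrophil elastase, likewise rose with PMA (0.65 ± 0.08, adjusted p = 2.37e-06) and fell with As2S2 (-0.82 ± 0.08, adjusted p = 9.88e-07). SERPINH1, a collagen chaperone that inhibits no protease, rose with As2S2 (0.78 ± 0.08, adjusted p = 2.41e-06). With PMA it stood at -0.11 ± 0.08 (adjusted p = 0.261), and with total counts it passed (-0.37, adjusted p = 0.000396). SERPINF2, the plasmin inhibitor alpha-2-antiplasmin, held 13, 16 and 12 counts in the 3 groups.

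Kunitz, macroglobulin and other inhibitors had 7 tested members of 12, of which 5 rose and 2 fell with PMA (median 0.43), and 1 rose and 1 fell with As2S2 (median 0.01). SPINT1, an inhibitor of hepatocyte growth factor activator, rose with PMA from 1.82 ± 0.525 to 6.79 ± 0.755 CPM (1.90 ± 0.21, adjusted p = 1.01e-06). The membrane inhibitor RECK rose by 1.03 ± 0.20 (adjusted p = 0.000233), and APP, whose longer forms carry a Kunitz domain, fell (-0.62 ± 0.07, adjusted p = 4.51e-07). With As2S2 SPINT2 rose (0.58 ± 0.08, adjusted p = 4.90e-05), with whole counts in 0 of 9 libraries, and APLP2 fell (-0.25 ± 0.06, adjusted p = 0.00534). PZP and A2ML1, relatives of A2M, were at 0 to 5 counts per group, and CD109, of the same family, stood at 29.3 ± 3.96 CPM in control and 38.3 ± 2.77 with PMA (0.39 ± 0.11, adjusted p = 0.00533). CST3, cystatin C, was higher with PMA than with As2S2 (0.80 ± 0.13, adjusted p = 7.62e-05).

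Coagulation genes and thrombin receptors had 8 tested members of 20, of which 6 rose and 1 fell with PMA (median 1.04), and 0 rose and 4 fell with As2S2 (median -0.29). THBD, thrombomodulin, which turns thrombin towards activating protein C, rose with PMA from 4.35 ± 0.650 to 49.2 ± 1.95 CPM (3.50 ± 0.12, adjusted p = 4.55e-13). It fell with As2S2 to 2.80 ± 0.110 CPM (-0.63 ± 0.15, adjusted p = 0.00280). The protease receptor F2RL1 rose with PMA from 5.40 ± 0.181 to 26.5 ± 2.11 CPM (2.29 ± 0.11, adjusted p = 4.77e-11), and PROS1, protein S, rose by 1.21 ± 0.11 (adjusted p = 1.02e-07). With As2S2 F2RL1 stood at -0.44 ± 0.13 (adjusted p = 0.0142), which was lost without control replicate 3 (-0.40, adjusted p = 0.0557). F2R, the main thrombin receptor, stood at -0.24 ± 0.07 with As2S2 (adjusted p = 0.0153), lost without control replicate 1 (-0.19, adjusted p = 0.0870), control replicate 3 (-0.23, adjusted p = 0.0626) or As2S2 replicate 2 (-0.22, adjusted p = 0.0720). Among the clotting factors, F2, F7 and F9 held 0 or 1 count per group and F10 at most 3.

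**Figure D4:**
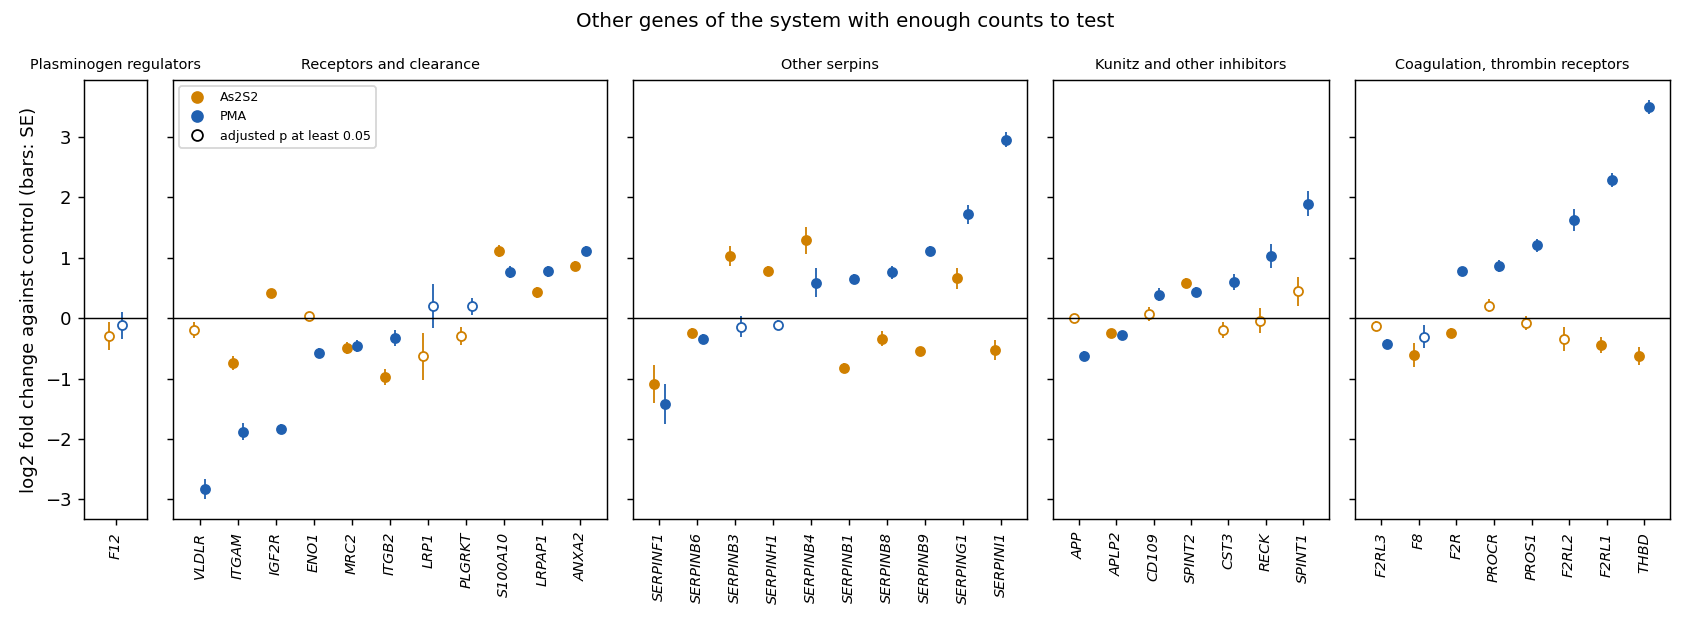
Log2 fold change against control of 37 tested genes that are not among the 9 members, by list, with As2S2 and with PMA (bars: SE, open points: adjusted p of at least 0.05). Of the genes plotted, THBD, SERPINI1 and F2RL1 were highest with PMA at 3.50, 2.96 and 2.29, and VLDLR was lowest at -2.83.

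PMA and As2S2 were also set against each other directly. Of the 38 genes 20 were higher with PMA and 10 lower (30.6% and 30.9% of all tested genes). THBD differed by 4.13 ± 0.13 (adjusted p = 1.41e-13, edgeR), SERPINI1 by 3.49 ± 0.14 (adjusted p = 5.58e-12), F2RL1 by 2.73 ± 0.12 (adjusted p = 1.22e-11) and SERPINB1 by 1.46 ± 0.08 (adjusted p = 2.11e-10). IGF2R was lower with PMA (-2.24 ± 0.08, adjusted p = 4.93e-13), as were VLDLR (-2.64 ± 0.17, adjusted p = 1.19e-09) and APP (-0.63 ± 0.07, adjusted p = 3.97e-07). Among the members, the direct log2 difference was 9.05 ± 0.19 for TFPI2, 8.65 ± 0.12 for A2M, 8.57 ± 0.14 for SERPINB2, 6.76 ± 0.29 for PLAT, 1.25 ± 0.08 for PLAUR, 1.17 ± 0.12 for TFPI, 0.83 ± 0.13 for PLAU and -0.35 ± 0.07 for SERPINE2. By deposited TPM this comparison gave smaller differences and another order: 8.21 for SERPINB2 (297 times), 7.58 for TFPI2 (191 times against 529 by CPM), 7.36 for A2M (164 times against 403) and 4.65 for PLAT (25.1 times against 108). PLAUR stood at 0.86, TFPI at 0.96, PLAU at 0.32 and SERPINE2 at -0.69 on that scale, where the median of all tested genes was -0.29.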

How the data were processed

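Poly(A)-selected RNA of MEG-01 cells was sequenced in 9 libraries, grouped by their titles. Per the submitters' processing notes, the tools named are fastp 0.22.0 and DESeq2. Those notes name zebrafish builds and 1 control sample carries a non-human organism label, whereas the tables carry human Ensembl IDs. Aligner, counter and strand setting: not given in the sources used here. The authors deposited, per the file headers, expected counts (estimated, not normalized) and TPM per gene and library. The deposited tables also give a fold ratio, a log2 fold change and p-values for each treatment against control. Symbols were found for 62666 of 63241 IDs.

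Counts were rounded, filtered with filterByExpr, scaled by TMM and fitted over all 9 libraries with the quasi-likelihood test of edgeR 4.0.16 (R 4.3.3), with Benjamini-Hochberg adjustment over 14592 genes and a threshold of 0.05. The fit was also run on simulated counts in which few genes changed, as many up as down. The data held many more called genes, so that run does not bear on the choice of scaling here. SEs are those implied by the F statistic, and errors beside CPM and TPM are SDs. Ratios of summed counts carry exact Poisson 95% intervals.

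The members and lists were chosen with earlier results of these data known. Of each list, up to 3 genes past the threshold with the smallest adjusted p and a mean of at least 1 CPM were named per comparison, together with PLG, ANXA2, S100A10, PLGRKT and LRP1. Genes with 5 or fewer counts and a few others named for their role were added after their values were seen. Some genes this rule picks are not reported here by name, though they are in the counts and medians of their lists. Alternatives were RLE, upper-quartile and total-count scaling, DESeq2 1.42.0, no filter or a stricter one, only the groups compared, a replicate block, the stricter adjusted p of 0.01, a minimum log2 difference of 1, omission of each library, and omission of control replicate 2 with As2S2 replicate 1. Total-count scaling and the TPM ratio were added after seeing the data.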

Additional observations from a re-analysis of the deposited data

How the results depend on the processing

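Every tested member kept the sign of its difference in all alternatives where it was tested, except PLAU with PMA, which stood at -0.19 by deposited TPM. Some values came close to 0. With As2S2, PLAT stood at -0.04 by deposited TPM, and SERPINB2 at 0.05 without both libraries that stood apart. PLAT was not tested for As2S2 with only the groups compared. At a threshold of 0.01, 1876 genes, 8 pathway genes and 3 members were called lower with As2S2. With an adjusted p below 0.05 and a log2 fold change of at least 1, 618 genes were called higher and 509 lower with As2S2, 1721 and 1339 with PMA, and 1624 and 1392 for PMA against As2S2. Of the pathway genes 3 and 1, 11 and 4, and 13 and 4 were then called in the same order, and of the members 0 were higher and 3 lower with As2S2 and 0 lower with PMA against control or against As2S2. The 3 included PLAT, which entered the tests only through its PMA libraries. Total-count scaling called 2955 genes higher and 6476 lower with PMA. Leaving out each library gave 2416 to 3302 genes higher and 2217 to 3018 lower with As2S2. With the replicate number as a block, 3005 genes were called higher and 2967 lower with As2S2, and 4569 and 4611 with PMA. Same-numbered libraries were not shown to be paired: their deviations correlated between -0.07 and 0.15, and 1 of 9 libraries correlated best with its own number in both other groups. Without both libraries that stood apart, 3791 genes were called higher and 3698 lower with As2S2. The cause of these shifts was not tested. At this depth no change in F3 or PLG was detectable.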

Other observations

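The counts per TPM of a gene reflect the length of the transcripts its reads were assigned to. Set against the median gene of the same library and the control mean, TFPI stood at 0.972 to 1.02 in control, 0.869 to 0.948 with As2S2 and 0.789 to 0.844 with PMA. The groups did not overlap, and the pooled PMA value of 0.816 lay just below the 5th percentile of 8425 genes with at least 100 counts in every library (0.827). SERPINE2 (0.998) and PLAUR (1.02) were close to 1 with PMA, and PLAU stood at 1.07. A2M stood at 1.17, from 272 control counts, where the 95th percentile was 1.11. With fewer than 100 counts in each control library, A2M was not among the 8425 genes, so its value is not like theirs. The percentiles are of means over libraries and not of pooled values.

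For the 7 members with a mean of at least 5 CPM, the genes with the most similar profile were sought among 9774 others by Pearson's r of log2(CPM + 0.1) over the 9 libraries. The libraries form 3 groups, so r reflects the group means and many genes score high: 85 genes reached 0.99 with SERPINB2. ENC1 was nearest to SERPINB2 (r = 0.9994), with group means of 34.5, 36.4 and 273 CPM in control, As2S2 and PMA. CCND1 (0.9991), STC1 (0.9983) and F2RL1 (0.9973) were nearest to A2M. CCND1 ran at 42.95, 37.6 and 82.2 CPM and STC1 at 2.72, 0.811 and 435 CPM, so a high r does not mean a change of similar size. RDH10 (0.9994), RSAD2 (0.9988) and PLEK (0.9984) were nearest to TFPI2, and RDH10 ran at 55.1, 34.4 and 210 CPM. HMGXB3 (0.9985), the integrin chain ITGB3 (0.9979) and JUN (0.9977) were nearest to PLAUR. HMGXB3 ran at 77.4, 96.3 and 156 CPM and ITGB3 at 78.1, 138 and 419 CPM. CARD16 (0.9955), IDI1 (0.9950) and VDAC3 (0.9947) were nearest to TFPI, FAM216A (0.9973), MRPL58 (0.9951) and SSRP1 (0.9924) to SERPINE2, and FAM178B (0.9845), BTN3A2 (0.9742) and BORCS5 (0.9732) to PLAU.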
